A study of Rattus norvegicus with 320 samples.

Results

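The comparison covers testis of male Fischer 344 rats at 6 weeks of age against testis at 2 weeks of age. It uses the 4 libraries labelled Tst_M_006 and the 4 labelled Tst_M_002, which are 8 of the 320 libraries of the series, and every row of the miRNA table. The series sequenced small RNA from ground organs of rats of both sexes at weeks 2, 6, 21 and 104. The 4 libraries of an age come from 4 different rats, which were housed in pairs, are of the same strain (spelled Fisher 344 in the labels) and carry no treatment or engineered allele in the labels. Each library is RNA of a whole ground organ, so germ cells, Sertoli cells, interstitial cells, vessels and blood are measured together.

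A miRNA is cut from a hairpin precursor and guides silencing complexes to mRNAs, mainly through the seed, here bases 2 to 8 of the mature strand. The strands of a hairpin are named 5p and 3p after the arm they come from. In the rat, the testis of a 2-week-old holds Sertoli cells, spermatogonia and germ cells that enter meiosis, while at 6 weeks the tubules also hold later spermatocytes and spermatids. miR-34b, miR-34c and the miR-449 miRNAs are known from germ cells in and after meiosis and from ciliated epithelium, and a fast-evolving cluster of X-linked miRNAs is known for expression in the testis of rodents.

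The sequences that the results turn on are given first, as listed in the deposited table, with the seed in capitals. The 5 miRNAs of the miR-34 and miR-449 family with an identical seed were the following.
miR-34a-5p: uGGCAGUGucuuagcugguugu
miR-34b-5p: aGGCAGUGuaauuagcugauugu
miR-34c-5p: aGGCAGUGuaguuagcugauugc
miR-449a-5p: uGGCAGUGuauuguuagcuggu
miR-449c-5p: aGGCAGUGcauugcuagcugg
In the RefSeq annotation of GRCr8, miR-34c-5p lies at chr8:60306133-60306155 and miR-34b-5p at chr8:60306657-60306679, both on the minus strand and within the span of the gene Hoatz. miR-449a-5p (chr2:46403925-46403946) and miR-449c-5p (chr2:46402394-46402414) lie on the plus strand within LOC134485839, and miR-34a-5p (chr5:165815971-165815992, plus strand) within LOC103692514. Exons and introns of these genes were not examined. Of the 27 X-linked testis miRNAs on the list used below, which were high in testis at both ages, 5 are shown. They had the highest levels on that list or changes that differed in size.
miR-743b-3p: gAAAGACAccauacugaauaga
miR-741-3p: aAAGAUGCcacgcuauguagau
miR-881-3p: uAACUGUGgcauuucugaauag
miR-871-3p: uGACUGGCaccauacuggauaa
miR-201-5p: cACUCAGUaaggcauuguuc
They lie on the minus strand of chromosome X, at chrX:150444588-150444609, chrX:150465166-150465187, chrX:150474713-150474734, chrX:150478590-150478611 and chrX:151711832-151711851, and their seeds differ from one another. The miR-181 miRNAs, which share a seed, and the miR-196 miRNAs, which share another, are shown because all but miR-181a-5p were called lower at week 6.
miR-181a-5p: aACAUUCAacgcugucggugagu
miR-181b-5p: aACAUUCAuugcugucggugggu
miR-181c-5p: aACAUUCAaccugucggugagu
miR-181d-5p: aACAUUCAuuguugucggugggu
miR-196a-5p: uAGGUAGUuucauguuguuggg
miR-196b-5p: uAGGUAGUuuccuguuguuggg
miR-196c-5p: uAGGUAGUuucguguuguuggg
miR-181c-5p (chr19:40888314-40888335) and miR-181d-5p (chr19:40888484-40888506) are neighbours on the plus strand of chromosome 19, and miR-196c-5p lies at chr10:81727561-81727582, also on the plus strand. miR-181b-5p and miR-181d-5p differ at 1 of 23 bases, and any pair of the 3 miR-196 miRNAs differs at 1 of 22 bases. miR-34b-5p and miR-34c-5p differ at 2 of 23 bases. Since the study aligned reads with up to 1 mismatch, reads can pass between such close members, and their separate values are less certain than the sums over a seed.

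The table holds 616 miRNAs as read counts, and 605 of them had at least 1 count in these 8 libraries. Total miRNA counts were 2385491 to 3622813 at week 2 and 734282 to 1115632 at week 6, so low miRNAs are measured more loosely at week 6. By the study's sample list, the week 6 libraries had more reads in all than the week 2 libraries. Most of those week 6 reads mapped to piRNAs, and miRNAs were a smaller share of the reads than at week 2. Levels are given as CPM, the counts divided by the library's total of miRNA counts and brought to a common scale. A level is therefore a share of the miRNA counts only, and absolute amounts were not measured, since reads on piRNAs and other small RNAs are not in the table and no spike-in was used. On log2(CPM + 1), Pearson's r was 0.990 to 0.993 within week 2, 0.977 to 0.989 within week 6 and 0.921 to 0.935 between ages. The 8 libraries were spread over 5 sequencing lanes, of which 1 held both ages (week 2 replicate 1 and week 6 replicate 4), so lane and age are largely confounded. RNA integrity, from the study's sample list, was lower in every week 6 library than in every week 2 library, and its part in the results was not tested. At week 6, replicates 1 and 2, which shared a lane, were both above replicates 3 and 4 in 100 of the 183 miRNAs with a mean of at least 100 CPM, and both below them in 23. At week 2, replicates 3 and 4, which were in different lanes, were both above replicates 1 and 2 in 112 of the 183 and both below them in 3. The part of lane in these splits was not tested.

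The labelled tissue was checked against its markers. miR-202-5p, a miRNA of the gonads, was at 19031, 24442, 26166 and 34341 CPM at week 2 and 13149.6, 13765, 9130.0 and 8756 CPM at week 6, and its highest mean in 9 other organs of male rats was 139 CPM at week 2. The 27 listed X-linked testis miRNAs had their highest mean of the 10 organs in testis at both ages. The germ cell marker miR-34c-5p was low at week 2 and high at week 6, as given in the next paragraphs.

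Between week 2 and week 6, the miRNAs of the miR-34 and miR-449 family and a run of X-linked miRNAs rose, and miR-181c, miR-181d, miR-196, miR-130a-3p and a part of the imprinted miRNAs fell. A miRNA was called when edgeR's adjusted p was under 0.05 and its log2 fold change was at least 1 in size. This gave 103 miRNAs higher at week 6 (17% of the 605 tested) and 101 lower (16.7%). Of these, 54 rose and 27 fell by at least 4-fold. The miRNAs called higher made up 3.84 to 4.89% of all miRNA counts in the week 2 libraries and 28.2 to 33.6% in the week 6 libraries. Those called lower made up 10.1 to 13% and 3.45 to 4.15%. The median log2 fold change of all miRNAs tested was -0.09. With scaling by library size alone it was -0.29, a shift of 0.20, and 87 were called higher and 141 lower. In the lane that held both ages, 102 of the 103 called higher and 101 of the 101 called lower had a ratio in the called direction, with miR-34a-3p as the exception. Both testis libraries of that lane are among those that gave the calls, and most called miRNAs did not overlap between ages. This agreement was therefore largely fixed in advance and is no separate check of lane. In such bulk samples, a lower level from fewer cells of a type and from less RNA per cell cannot be told apart.

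**Figure D1:**
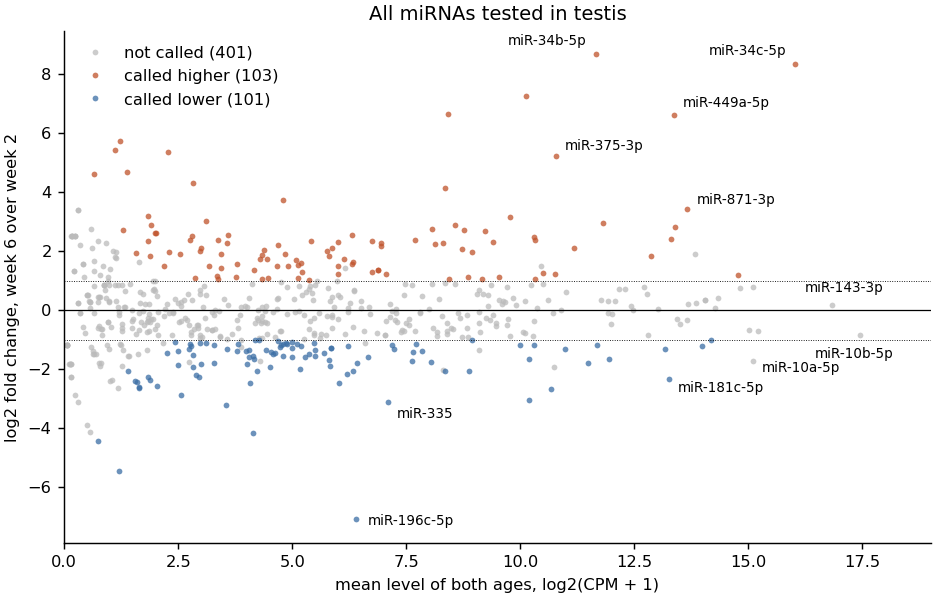
Log2 fold change at week 6 over week 2 (vertical) against the mean level of both ages as log2(CPM + 1) (horizontal), 1 point per miRNA tested in testis. Orange marks the 103 called higher, blue the 101 called lower and grey the other 401, with dotted lines at a log2 fold change of 1 and -1. miR-34b-5p and miR-34c-5p sit highest at 8.67 and 8.35, and miR-196c-5p lowest at -7.10.

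All 8 miRNAs of the miR-34 and miR-449 family were called higher at week 6, against 17% over all miRNAs tested. Their median log2 fold change was 6.65, against -0.09 over all miRNAs tested. Their summed level was 901 to 1133 CPM at week 2 and 150186 to 182556 CPM at week 6. miR-34c-5p stood at 471, 418, 491 and 492 CPM at week 2 and 151844, 136646, 126916 and 118131 CPM at week 6. Every week 6 library was far above every week 2 library, a 326-fold rise (log2 fold change 8.35 ± 0.14 (SE), adjusted p = 4.29e-17, edgeR). From rank 103 among the miRNAs of testis it became the most abundant miRNA at week 6, with 13.3% ± 1.44 (SD, n = 4) of the miRNA counts. miR-34b-5p, from the same transcript region, stood at 17.9, 11.7, 21.8 and 19.9 CPM at week 2 and 8631, 7914, 4598 and 4555 CPM at week 6. Its libraries did not overlap between ages either, and its log2 fold change was 8.67 ± 0.27 (SE; adjusted p = 3.46e-11). The opposite strands rose as well, miR-34b-3p by 7.27 ± 0.22 and miR-34c-3p by 6.66 ± 0.19 on the log2 scale.

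miR-449a-5p, which has the same seed and lies on another chromosome, stood at 211, 231, 283 and 252 CPM at week 2 and 16573, 19849.7, 23961 and 23131 CPM at week 6. The lowest week 6 library was 16573 CPM and the highest week 2 library 283 CPM, and the log2 fold change was 6.64 ± 0.19 (SE; adjusted p = 1.01e-13). miR-449c-5p rose less, from 39.3 ± 3.18 to 612 ± 41.3 CPM (SD, n = 4), a log2 fold change of 4.16 ± 0.15. miR-34a-5p, a family member that many tissues express, stood at 150.1, 176, 272 and 214 CPM at week 2 and 1389, 1696, 1739 and 1409 CPM at week 6. It also rose in every library, with a log2 fold change of 3.16 ± 0.16 (SE; adjusted p = 9.71e-11). miR-34a-3p stayed under 10 CPM and overlapped between ages. In the lane that held both ages, the log2 ratio was 8.16 for miR-34c-5p, 8.15 for miR-34b-5p, 6.97 for miR-449a-5p and -0.10 for miR-34a-3p, from 1 library an age.

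**Figure D2:**
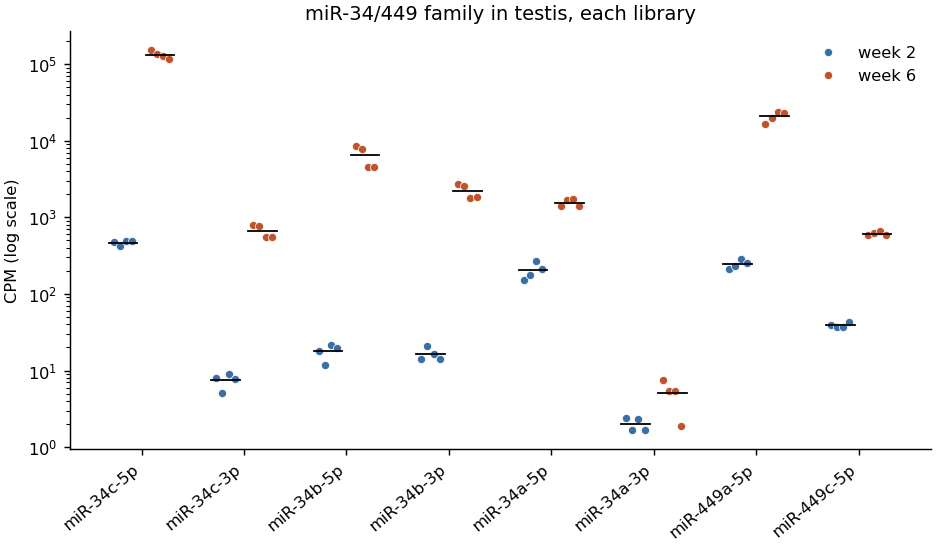
Level of each miR-34 and miR-449 miRNA in CPM on a log axis, 1 point per library (4 at week 2 in blue, 4 at week 6 in orange), with the mean of each age as a black line. The week 6 points lie above all week 2 points for every miRNA except miR-34a-3p, and miR-34c-5p lies between 118131 and 151844 CPM at week 6.

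The listed X-linked testis miRNAs were already present at week 2, and most of them rose further. Of the 27 listed, 21 were called higher, 0 lower and 6 neither, against 17% and 16.7% over all miRNAs tested, and their summed level was 15269 to 27954 CPM at week 2 and 63037 to 100623 CPM at week 6. By position in GRCr8 (miRNAs within 50 kb of each other on a strand), 2 groups hold the listed miRNAs that have a single place. The groups also hold both strands of miR-3580 and miR-3585, which are not on the list, and the listed miR-201-3p and miR-881-5p have no place and are in neither. The group at chrX:150444098-150488232 holds 22 miRNAs of 13 hairpins at a known single place, and 22 of 22 were called higher, with log2 fold changes from 1.27 to 3.42 and a summed mean level of 13750.5 CPM at week 2 and 73745 CPM at week 6. The group at chrX:151706741-151732870 holds 7 miRNAs, of which 1 (miR-3585-3p, not a listed miRNA, 1.05 ± 0.34) was called. The summed mean of this group was 22420.2 and 26566 CPM. At week 2 that was above the mean sum of all 27 listed miRNAs (20707 CPM), so a part of it came from the unlisted miR-3585. miR-3585-5p was not called (log2 fold change 0.24). The difference between the groups was not tested.

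In the larger group, miR-743b-3p stood at 2611, 2592, 2985 and 4037 CPM at week 2 and 20728, 18049, 18372 and 16953 CPM at week 6. The ages did not overlap, and the log2 fold change was 2.81 ± 0.12 (SE; adjusted p = 1.27e-11). miR-741-3p rose from 935 ± 268 to 6287 ± 1395 CPM (SD, n = 4; log2 fold change 2.96 ± 0.16), and miR-881-3p from 3634 ± 344 to 11374 ± 1159 CPM (1.84 ± 0.12). miR-471-3p, miR-743a-3p, miR-743b-5p and miR-463-5p rose by 2.91, 2.49, 2.68 and 2.11 on the log2 scale. miR-871-3p was the exception in its spread, at 6362, 490.0, 571 and 2107 CPM at week 2 and 30381, 37165, 6492 and 20344 CPM at week 6. Its lowest week 6 library was close to its highest week 2 library, and the call (3.42 ± 1.10, adjusted p = 0.0405) was lost without any 1 of 6 libraries (week 2 replicates 2, 3 and 4, and week 6 replicates 1, 2 and 4), where the adjusted p was 0.0707 to 0.0996. The opposite strand miR-871-5p rose from 946 ± 277 to 1967 ± 362 CPM. In the smaller group, miR-201-5p stood at 3905, 3942, 4982 and 8839 CPM at week 2 and 10554, 8966, 6865 and 5445 CPM at week 6. Its ages overlapped, and its log2 fold change of 0.77 ± 0.23 (SE; adjusted p = 0.0169, edgeR) was under the fold needed. That value reached 1.02 (adjusted p = 3.96e-05) without week 2 replicate 4, its highest library of that age. miR-547-3p (0.79 ± 0.17) overlapped between ages too.

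**Figure D3:**
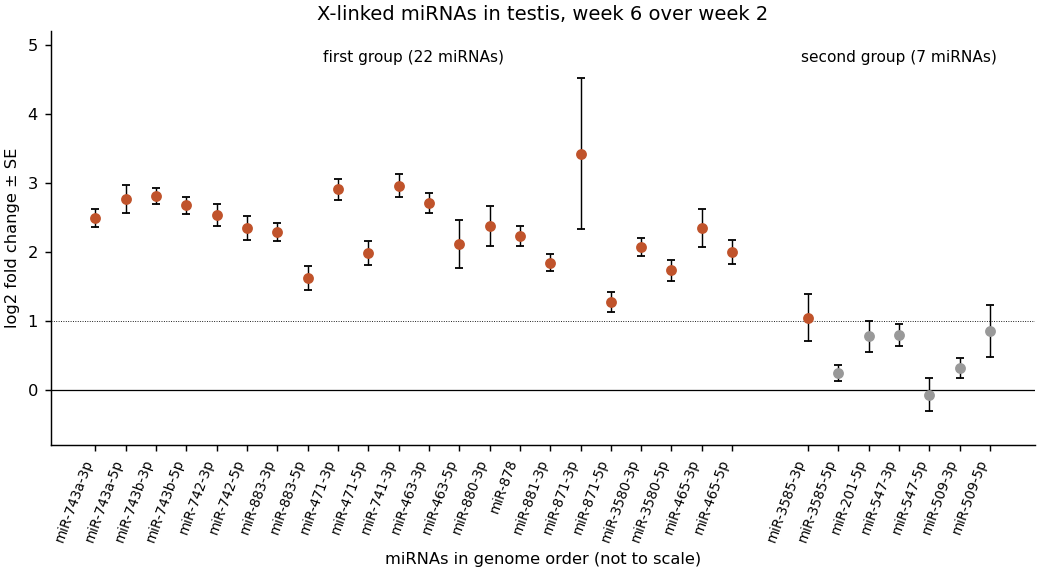
Log2 fold change at week 6 over week 2 with its SE (vertical) for the X-linked miRNAs at a known place, in genome order and not to scale (horizontal), with orange points called higher and grey points not called. The first group of 22 lies between 1.27 and 3.42, and the second group of 7 between -0.07 and 1.05.

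Further miRNAs that rose came from several families. miR-375-3p, known from endocrine cells, stood at 123, 99.4, 91.6 and 96.1 CPM at week 2 and 3530.2, 3233, 3262 and 3568 CPM at week 6. The ages were far apart, and the log2 fold change was 5.24 ± 0.18 (SE; adjusted p = 1.05e-12). miR-191a-5p, one of the 5 most abundant miRNAs at week 6, rose from 18921 ± 1270.3 to 37539.8 ± 3546 CPM (SD, n = 4), close to the fold needed for a call (1.19 ± 0.12, and 0.99 when scaled by library size alone). In the miR-29 family, whose members target collagen mRNAs, 4 of 7 were called higher and 0 lower, against 17% and 16.7% over all miRNAs tested. miR-29a-3p stood at 417, 337, 483 and 608 CPM at week 2 and 2678, 2530.4, 1585 and 1567 CPM at week 6, without overlap, a log2 fold change of 2.38 ± 0.17 (SE; adjusted p = 6.24e-09). Of the 22 miRNAs of miR-17~92 and its paralogs, a group known from dividing cells, 3 were called higher and 2 lower, both below the 17% and 16.7% over all miRNAs tested. miR-19a-3p, miR-19b-3p and miR-18a-5p rose by 2.19, 1.11 and 1.28 on the log2 scale, while miR-93-5p, of the paralogous cluster within Mcm7, fell from 4743 ± 757 to 1825 ± 164 CPM (-1.17 ± 0.11). The most abundant of this group, miR-92a-3p, was at 15622, 17021, 16060.0 and 28674 CPM at week 2 and 26234, 26741, 19009 and 16809.8 CPM at week 6, with overlap (log2 fold change 0.40 ± 0.16, adjusted p = 0.0525). miR-25-3p was at 4316 ± 489.6 and 3493 ± 261 CPM (-0.10 ± 0.11). miR-425-5p, which shares a host region with miR-191 in mammals, rose from 255 ± 17.8 to 1106 ± 73 CPM (2.32 ± 0.12), and miR-7a-5p from 48 ± 10.9 to 197 ± 76.7 CPM (2.27 ± 0.33).

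Among the miRNAs that fell, miR-196c-5p changed most. It stood at 129, 161, 194 and 184 CPM at week 2 and at 0.934, 1.79, 0 and 0.956 CPM at week 6, where no library had more than 3 counts. Taking 3 counts per library as the floor, which covers counting error only since reads carry no molecular identifiers, it was at least 53.7-fold lower at week 6. Its near copies miR-196a-5p and miR-196b-5p fell by 1.79 ± 0.36 and 2.05 ± 0.62 (SE) on the log2 scale. miR-196b-5p varied widely within week 2, at 164, 84.3, 239 and 37.3 CPM, and its adjusted p of 0.031 rose to between 0.0575 and 0.0814 without week 2 replicate 1 or without any 1 week 6 library. In all, 14 of the 101 miRNAs called lower were at the floor at week 6 and 7 of the 103 called higher at week 2, of which 1 (miR-3590-3p) was at the floor at both ages, so that their fitted fold changes are no measure of size.

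The miR-181 miRNAs were lower to different degrees. miR-181c-5p stood at 14303, 18867, 17913 and 15798 CPM at week 2 and 2595, 2930.2, 2838 and 3166 CPM at week 6. All week 6 libraries were below all week 2 libraries, with a log2 fold change of -2.34 ± 0.15 (SE; adjusted p = 2.16e-09). Its neighbour miR-181d-5p fell from 2132 ± 316 to 221 ± 11.2 CPM (SD, n = 4; log2 fold change -3.06 ± 0.13), the opposite strand miR-181c-3p from 778 ± 68.5 to 165 ± 19.2 CPM (-2.05 ± 0.14), and miR-181b-5p from 4590.2 ± 688 to 1144 ± 174 CPM (-1.80 ± 0.14). The most abundant member, miR-181a-5p, went from 43024 ± 4848 to 23231 ± 5219 CPM and was not called (-0.69 ± 0.21, adjusted p = 0.0188). miR-130a-3p stood at 2459, 2483, 3207 and 3307 CPM at week 2 and 467, 422, 305 and 368 CPM at week 6, a separation without overlap (log2 fold change -2.67 ± 0.13, adjusted p = 7.95e-11). miR-135b-5p and miR-31a-5p fell by 2.16 ± 0.20 and 2.07 ± 0.14 (SE). miR-122-5p, the main miRNA of liver cells, was at 110.5, 156, 97.2 and 78.7 CPM at week 2 and 12.1, 19.7, 27.2 and 13.4 CPM at week 6 and fell by 2.47 ± 0.36.

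Imprinted miRNAs are expressed from the chromosome of 1 parent and are known for high levels in fetal and young tissues. In the Dlk1-Dio3 region on chromosome 6, 9 of 23 miRNAs around Rtl1 and 22 of 55 from miR-379 to miR-410 were called lower and 0 were called higher, against 16.7% and 17% over all miRNAs tested. The medians were -0.88 and -0.92, and -0.84 and -0.86 with members at the floor set to their bound. The summed level of the miR-379 to miR-410 miRNAs was 5083 to 5437 CPM at week 2 and 1998 to 2172 CPM at week 6, with no overlap. miR-127-3p, the most abundant of the region, stood at 13316, 11426, 13611 and 16651 CPM at week 2 and 5296, 5968, 3826 and 4226 CPM at week 6, a fall of 1.31 ± 0.13 (SE; adjusted p = 4.99e-07) on the log2 scale. miR-411-5p fell from 3019 ± 189 to 1048 ± 62.1 CPM, and miR-434-3p went from 1386 ± 276 to 734 ± 290.0 CPM (-0.73 ± 0.23). miR-335, which lies in Mest in mammals, was at 241, 164, 254 and 326 CPM at week 2 and 29.9, 27.8, 21.8 and 18.2 CPM at week 6 and fell by 3.12 ± 0.19 (adjusted p = 9.3e-10). It was the only call among 5 miRNAs of H19, Igf2 and Mest, a share close to the 16.7% called lower over all miRNAs tested. In the X-linked cluster of miR-322 and miR-503, 2 of 12 were called lower, a share equal to the 16.7% over all miRNAs tested, among them miR-322-5p, from 1821 ± 328 to 693 ± 150.4 CPM, while miR-351-5p, its most abundant member, went from 9662 ± 2021 to 4693 ± 477 CPM without reaching the fold needed (-0.83 ± 0.12, adjusted p = 3.66e-05). miR-450a-5p was at 1457 ± 231 and 741 ± 199 CPM (-0.78 ± 0.15).

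Lists for other cells of the testis were examined next. Of the 8 miRNAs linked to undifferentiated spermatogonia (miR-21, miR-146a, miR-221 and miR-222), 0 were called higher and 0 lower, against 17% and 16.7% over all miRNAs tested, and their summed level was 13975 to 18524 CPM at week 2 and 10451 to 11499.7 CPM at week 6. miR-21-5p made up most of it, at 14276 ± 1668 and 8942 ± 265 CPM (SD, n = 4; log2 fold change -0.47 ± 0.11, adjusted p = 0.00254). The gonadal miR-202-5p, whose libraries are given above, fell by 1.01 ± 0.14 (SE; adjusted p = 2.37e-05), just past the fold needed. Its call was lost without week 2 replicate 2 or 4 or week 6 replicate 3 or 4 (log2 fold change -0.98 to -0.92). With lane as a covariate in an edgeR fit of all libraries that the study kept, its log2 fold change was -0.17 (adjusted p = 0.855). The lane effects of that fit rest mostly on other organs, and lane within these testis libraries alone was not fitted. miR-140-3p, listed with it, was at 1389.6 ± 144 and 1260.4 ± 135 CPM (0.06 ± 0.11). The embryonic miR-290 and miR-302 miRNAs were low at both ages, 28 to 37.5 CPM at week 2 and 22.4 to 28.6 CPM at week 6 in sum. Of these, 0 of 6 were called, against 17% higher and 16.7% lower over all miRNAs tested.

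In the list for smooth muscle and mesenchyme, 3 of 8 were called lower, against 16.7% over all miRNAs tested. These were miR-199a-3p, miR-199a-5p and miR-214-3p, at 6143 ± 785, 1824 ± 324 and 417 ± 37.1 CPM at week 2 and 1707 ± 246, 510.0 ± 145 and 107 ± 16.5 CPM at week 6 (SD, n = 4). miR-143-3p, a smooth muscle miRNA and after miR-10b-5p the most abundant miRNA of testis at week 2, was at 118571, 116763, 122240.3 and 115132 CPM at week 2 and 113345, 106316, 113805 and 133668 CPM at week 6. Its ages overlapped (log2 fold change 0.18 ± 0.13, adjusted p = 0.265). miR-145-5p, of the same hairpin cluster, was at 1507 ± 194 and 1022 ± 242 CPM (-0.37 ± 0.14). Neither of the 2 strands of endothelium was called (miR-126a-3p 0.32 ± 0.15, miR-126a-5p -0.14 ± 0.15), against 17% higher and 16.7% lower over all miRNAs tested. The leukocyte list had 1 of 8 called higher (miR-223-3p, 1.28 ± 0.19), below the same 17%. Of the red blood cell miRNAs, 4 of 5 were called higher against the same 17%, and their summed level was 3233 to 4484 CPM at week 2 and 12265 to 21338 CPM at week 6. Nearly all of it was miR-486, at 3340.3, 3864, 3123 and 4377 CPM at week 2 and 12013, 13605, 21195 and 19949 CPM at week 6 (log2 fold change 2.40 ± 0.25, adjusted p = 4.57e-05). The blood cell miRNA miR-451-5p rose from 72.7 ± 14.4 to 162 ± 45.9 CPM. Whether blood in the organs differed was not tested. The nervous list had 6 of 11 called higher, again against 17%, with miR-128-3p at 319.6 ± 192 and 597 ± 216 CPM and miR-124-3p at 4.53 ± 2.12 and 49.5 ± 31.6 CPM. The striated muscle list had 4 of 11 tested called higher against 17%, and those 4 were all at or under a mean of 30.8 CPM. Its summed level was 316 to 396 CPM at week 2 and 509 to 652 CPM at week 6. Most of that was the cluster of miR-133a and miR-1, at 292 and 474 CPM. miR-133a-3p was not called, and miR-1-3p and miR-206-3p were at 5.21 and 0.807 CPM at week 6.

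The most abundant miRNA of testis at week 2 was miR-10b-5p, at 244078, 299352, 236761 and 182574 CPM at week 2 and 69808, 79855, 170245 and 147591 CPM at week 6. All week 6 libraries were lower, yet the spread at week 6 was wide and the log2 fold change of -0.84 ± 0.41 (SE) was not called (adjusted p = 0.143). miR-26a-5p did not reach the fold needed, going from 50023 ± 8113 to 26336 ± 1201 CPM (SD, n = 4; -0.71 ± 0.10, adjusted p = 2.66e-05), and miR-30a-5p went from 28534 ± 2640.3 to 42417 ± 5250.4 CPM (0.77 ± 0.14, adjusted p = 0.000213). The 11 miRNAs of the miR-30 family had 0 calls, against 17% called higher and 16.7% called lower over all miRNAs tested. Their median log2 fold change was 0.31. The log2 fold changes of miR-30b-5p, miR-30c-5p, miR-30d-5p and miR-30e-5p were 0.63, 0.16, 0.34 and 0.20. miR-98-5p, a let-7 relative, was at 13008 ± 2319.7 and 9184 ± 935 CPM (-0.29 ± 0.11), and let-7 itself was not analysed here.

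A set of abundant miRNAs varied widely between rats of an age. miR-100-5p stood at 14364, 3218, 3604 and 5331 CPM at week 2 and 29569.9, 36710.1, 6999 and 17746 CPM at week 6, and miR-99b-5p at 38768, 11414, 11205 and 20863 CPM at week 2 and 21664, 27564, 8459 and 19304 CPM at week 6. Within week 2, replicate 1 was highest in both, in miR-99a-5p, in miR-125b-5p and in miR-871-3p, and within week 6 replicate 3 was lowest in all of them. The highest library was 3.46 to 13 times the lowest at week 2 for miR-99b-5p, miR-100-5p and miR-871-3p. The log2 fold change of miR-100-5p was 1.90 ± 0.74 (SE; adjusted p = 0.0765, edgeR). It was 2.62 (adjusted p = 0.0134) without week 2 replicate 1 and 2.20 (adjusted p = 0.0467) without week 6 replicate 3. These were its highest week 2 and its lowest week 6 library, so leaving either out raises the difference by construction. The 2 values are therefore no separate test of a rise. With all libraries, the log2 fold changes of miR-99b-5p, miR-99a-5p, miR-125b-5p and miR-125a-5p were 0.06 ± 0.57, 0.30 ± 0.46, 0.54 ± 0.40 and -0.35 ± 0.28. Their adjusted p from edgeR were 0.94, 0.63, 0.323 and 0.353. Among the 15 miRNAs of the miR-10, miR-99, miR-100 and miR-125 families, 6 were called lower against 16.7% over all miRNAs tested, all of them 3p strands (miR-10a-3p, miR-10b-3p, miR-99b-3p, miR-125a-3p, miR-125b-1-3p and miR-125b-2-3p). miR-99a-3p (-0.82) and miR-100-3p (0.12) were not called.

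The miRNAs of epithelium differed between the week 6 libraries. miR-200b-3p stood at 1271, 423, 797 and 779 CPM at week 2 and 192, 95.9, 119.8 and 677 CPM at week 6, and miR-141-3p at 865, 578, 987 and 517 CPM at week 2 and 204, 114, 169 and 990.2 CPM at week 6. In both, week 6 replicate 4 was at the level of week 2 while the other week 6 libraries were below all week 2 libraries. The cluster of miR-183, miR-96 and miR-182 had the same library apart, with miR-182 at 3626, 2375, 2790.5 and 2371 CPM at week 2 and 339.9, 185, 404 and 1558 CPM at week 6 and miR-183-5p at 726, 429.7, 508 and 439 CPM at week 2 and 42, 32.3, 69.5 and 284 CPM at week 6. So did miR-10a-5p, at 69656, 54411, 62079 and 37569 CPM at week 2 and 7512, 6975, 12459.8 and 30466 CPM at week 6. With all libraries, 1 of 9 miR-200 family miRNAs and 1 of 4 of the miR-183 cluster were called lower, against 16.7% over all miRNAs tested. Without week 6 replicate 4, singled out for its high levels of these miRNAs, 8 of 9 and 4 of 4 were called lower. Leaving it out for that reason makes these counts no separate test of a fall. Over all 603 miRNAs tested in that fit, 106 were called lower. In it, miR-200b-3p was at -2.46 (adjusted p = 0.00518), miR-182 at -3.04 (adjusted p = 0.000215) and miR-10a-5p at -2.50 (adjusted p = 0.00212) against -1.91 ± 0.76 (adjusted p = 0.0821) for miR-182 and -1.73 ± 0.62 (adjusted p = 0.0604) for miR-10a-5p with all libraries. Week 6 replicate 4 shared its lane with week 2 replicate 1, and its miR-34c-5p level was the lowest of the week 6 libraries, at 118131 CPM. What set it apart was not tested. For the miR-183 cluster the count of calls also fell to 0 without week 2 replicate 1, 2 or 3 or week 6 replicate 1 or 2.

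**Figure D4:**
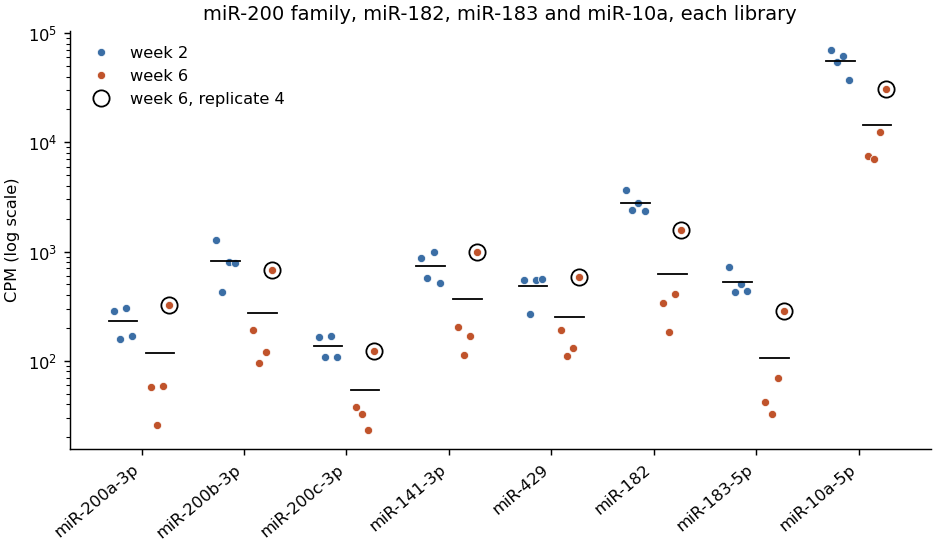
Level in CPM on a log axis of 8 miRNAs in each library (week 2 in blue, week 6 in orange), with the mean of each age as a black line and week 6 replicate 4 circled. The circled point is the highest of the 4 week 6 libraries for all 8, for example 1558 CPM against 185 to 404 CPM for miR-182.

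Whether the changes of testis also happened elsewhere was asked by comparing the step from week 2 to week 6 in testis with the mean of the same step in 9 other organs of male rats (adrenal gland, brain, heart, kidney, lung, liver, skeletal muscle, spleen and thymus). The change in testis was the more positive for 112 of 616 miRNAs (18.2%) and the more negative for 61 (9.9%), by the same rule. The study took several organs from each rat, and this fit treated the libraries of a rat as independent. With a block for age and replicate number, 170 were called, and 169 of them were among the calls given here. The median difference over all miRNAs was 0.34, and this balance moved with the libraries that set the scaling. With the brain library that the study had removed added back, 90 were higher and 81 lower with a median of 0.12, and without any 1 testis library 87 to 99 were higher and 68 to 80 lower. Of the 103 miRNAs called higher in testis, 57 were also called in this comparison in the same direction, and of the 101 called lower, 37 were. Both comparisons use the same testis libraries, so a part of this overlap is built in.

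The 5 largest positive differences were miR-34b-5p with 8.01 ± 0.39 (SE; adjusted p = 6.97e-29), miR-34c-5p with 7.89 ± 0.40 (SE; adjusted p = 2.64e-27), miR-449a-5p with 7.16 ± 0.41 (SE; adjusted p = 4.85e-24), miR-34b-3p with 6.62 and miR-34c-3p with 5.76. In the other organs the log2 fold change of miR-34c-5p was -1.05 to 1.59, and that of miR-449a-5p -2.32 to 0.69. Lung, which holds ciliated epithelium, had the highest level of miR-34c-5p outside testis, with 2272 CPM at week 2, above testis at that age, and 3627 CPM at week 6, far below it. The largest negative differences among miRNAs of at least 100 CPM in testis at week 2 were miR-183-5p with -2.90 ± 0.70 (SE; adjusted p = 0.000573), miR-182 with -2.72 ± 0.54 (SE; adjusted p = 2.85e-05), miR-130a-3p with -2.29 ± 0.18 (SE; adjusted p = 7.52e-18), miR-181d-5p with -2.26 ± 0.17 (SE; adjusted p = 7.13e-19) and miR-10a-5p with -2.15. For miR-183-5p, miR-182 and miR-10a-5p week 6 replicate 4 stood apart, as described. For miR-130a-3p the other organs ranged over -1.18 to 0.34, all above testis at -2.57. The imprinted miR-127-3p was at -1.21 in testis against a mean of -2.05 over the other organs, and 7 of the 9 were themselves called lower. The difference of 0.85 was under the size needed for a call. miR-335 was called lower in 7 of the 9 other organs.

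**Figure D5:**
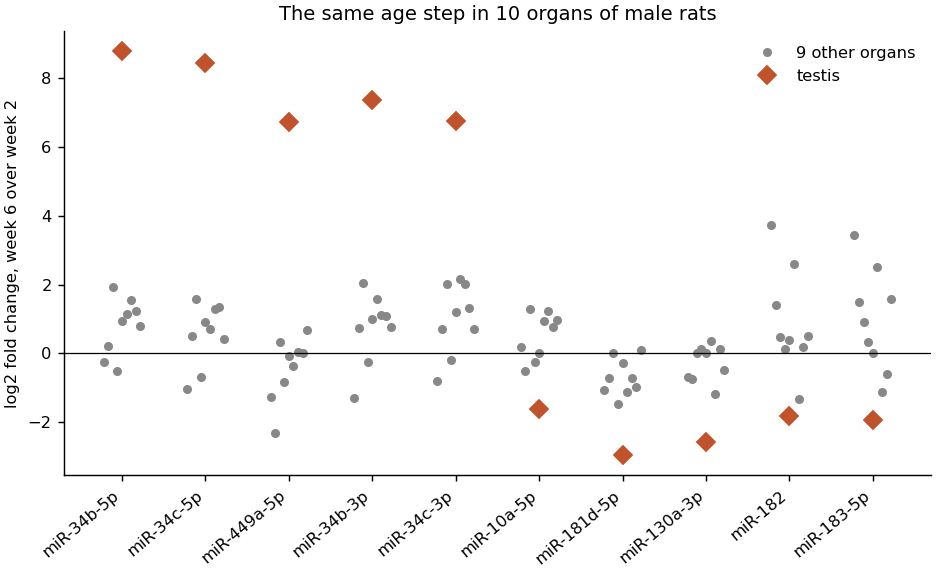
Log2 fold change at week 6 over week 2 (vertical) for the 10 miRNAs with the largest differences, with testis as an orange diamond and each of 9 other organs as a grey point. Testis lies above every other organ for the 5 miRNAs on the left, at 6.74 or more, and below every other organ for the 5 on the right.

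The arms of a hairpin were compared within each library. In 117 hairpins with both arms counted (mean of at least 10 counts each), 17 had both arms called higher, 17 both called lower and 0 called in opposite directions. The log2 ratio of the 5p to the 3p arm, which does not depend on the scaling, was called higher at week 6 for 5 hairpins (4.27%) and lower for 5 (4.27%). For miR-34c it was 5.96 ± 0.26 at week 2 and 7.65 ± 0.16 at week 6 (SD, n = 4), a difference of 1.68 ± 0.19 (SE; adjusted p = 0.00074, limma). For miR-18a it was 0.43 ± 0.40 at week 2 and 2.64 ± 0.69 at week 6 (SD, n = 4), a difference of 2.22 ± 0.36 (SE; adjusted p = 0.00537, limma), and for miR-125a 8.98 ± 0.46 at week 2 and 10.79 ± 0.46 at week 6 (SD, n = 4), a difference of 1.81 ± 0.31 (SE; adjusted p = 0.0058, limma). Toward the 3p arm, miR-19a moved from -2.28 to -4.44 and miR-9a from 5.21 to 3.46. miR-196c is named by the same rule, but both of its arms were near 0 counts at week 6 and its ratio there (-0.21) is no measure. The counts of these calls rest on few libraries. Those toward the 5p arm were 9 without week 2 replicate 1, 8 without week 6 replicate 3 and 3 without week 6 replicate 1. Those toward the 3p arm were 9 without week 6 replicate 3, 3 without week 2 replicate 4 or week 6 replicate 2, and 2 without week 6 replicate 1, and miR-9a was then at an adjusted p of 0.053 and 0.0509 without week 2 replicate 4 and week 6 replicate 1.

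Counts were also summed over miRNAs with an identical seed, which removes the uncertainty of how reads were split between near copies that share a seed. miR-10a-5p and miR-10b-5p are near copies whose listed sequences start at different bases. Their seeds therefore differ, and this uncertainty remains for them. Of 512 seeds, 82 were called higher at week 6 (16%) and 90 lower (17.6%). The seed GGCAGUG of miR-34a-5p, miR-34b-5p, miR-34c-5p, miR-449a-5p and miR-449c-5p, printed above, held 0.0972% ± 0.0111 at week 2 and 16.3% ± 1.33 at week 6 of all miRNA counts (SD, n = 4), a log2 fold change of 7.59 ± 0.10 (SE; adjusted p = 6.04e-19, edgeR). It became the most abundant seed of testis. The seed ACAUUCA of the 4 miR-181 miRNAs went the other way, with 6.65% ± 0.668 at week 2 and 2.75% ± 0.545 at week 6, a log2 fold change of -1.07 ± 0.19 (adjusted p = 0.0013), which fell short of the fold needed without week 2 replicate 2 or week 6 replicate 1 or 2 (-0.98 to -0.95). The seed CCUGUAG of miR-10b-5p held 24.1% ± 4.78 at week 2 and 11.7% ± 4.96 at week 6, that of miR-143-3p (GAGAUGA) 11.8% ± 0.305 at week 2 and 11.7% ± 1.18 at week 6, and that of the miR-30 miRNAs (GUAAACA) 6.51% ± 0.58 at week 2 and 8.1% ± 0.523 at week 6. The seed ACCCGUA of miR-99a-5p, miR-99b-5p and miR-100-5p held 3.09% ± 1.95 at week 2 and 4.61% ± 2.28 at week 6, and ACCCUGU of miR-10a-5p 5.59% ± 1.37 at week 2 and 1.44% ± 1.1 at week 6. None of these 5 was called with all libraries, and without week 6 replicate 4 the seed of miR-10a-5p was called lower at -2.50.

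Of the study's candidate miRNAs, 11 had a count in these libraries, and 1 had a mean above 10 CPM, rno_miR_chrX_48878, at 220.0, 134, 274 and 367 CPM at week 2 and 563, 628, 185 and 238 CPM at week 6. Its libraries overlapped between ages, replicates 3 and 4 of week 6 lay within the week 2 range, and it was not called (log2 fold change 0.91 ± 0.43, adjusted p = 0.13). Without week 6 replicate 3, its lowest library of that age, the log2 fold change was 1.14 (adjusted p = 0.034, edgeR). Of the others, rno_miR_chrX_48468 was called higher (0.596, 0.419, 0.589 and 1.93 CPM at week 2, 1.87, 8.07, 1.36 and 0.956 CPM at week 6) and rno_miR_chr7_40035 lower (4.47, 0.838, 7.36 and 2.48 and 0.934, 0, 0 and 0.956 CPM), each from a few counts a library.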

How the data were processed

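Small RNA libraries of ground testis from male rats at weeks 2 and 6 were used, with 4 rats per age. The authors removed adapters with fastp 0.23.2, kept short reads and aligned them with Bowtie 1.3.1 to miRBase and other collections with up to 1 mismatch. They deposited raw counts per miRNA, without normalization, after leaving out miRNAs with a low mean count. Depth was 734282 to 3622813 miRNA counts per library, and 3 counts equal 0.828 to 4.09 CPM. Groups come from the sample labels. Lanes come from the study's sample list.

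Ages were compared with edgeR 4.0.16 (quasi-likelihood, robust, TMM) in R 4.3.3 on the 605 miRNAs with a count, with p-values adjusted by the Benjamini-Hochberg method. Testis was compared with other organs as a difference of differences in 1 fit of male samples, without the brain library removed by the study. Arm ratios (pseudocount of 0.5) were compared with limma 3.58.1. The edgeR, DESeq2 and limma steps were also run on simulated counts with known changes. The simulation gave every miRNA the same dispersion between replicates, unlike these libraries, and its outcome is not given here. Tables were made with Python 3.11.15, pandas 2.3.3 and NumPy 2.4.6. By sequence, 553 of 616 miRNAs matched RefSeq (GRCr8), 532 at 1 place.

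Named were the 12 called miRNAs with the largest change in each direction (at least 100 CPM in the higher age, no overlap), the 5 most abundant at each age, listed miRNAs of at least 1000 CPM, candidates of at least 10 CPM, the 5 largest differences from other organs in each direction at 100 CPM, the 3 largest arm changes in each direction and the 5 most abundant seeds. Others were named after their values were seen. The members and lists were chosen with earlier results of these data known. Replicate numbers do not pair rats, and deviations of same-numbered libraries correlated at -0.35 to 0.12. Alternatives were library size only, RLE, DESeq2 1.42.0, count minimums, glmTreat, all 16 testis samples, a replicate block and leaving out each library. Lane was a covariate only in a fit of all libraries that the study kept.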

Additional observations from a re-analysis of the deposited data

Results flagged for a closer look

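Among the miRNAs named, each age was checked for a library far from the other 3, a check that chance alone would trip in about 1 of 20 groups. 5 of 142 such groups did so. At week 2, replicate 4 was apart for miR-92a-3p (28674 CPM, others 15622, 16060.0 and 17021 CPM), miR-351-5p (12686 CPM, others 8545, 8575 and 8840.3 CPM) and miR-463-5p (1747 CPM, others 673, 727 and 769 CPM). At week 6, replicate 4 was apart for miR-182 (1558 CPM) and miR-183-5p (284 CPM), whose other libraries are in the report.

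The change from week 2 to week 6 was called different between testis and the mean of 9 other organs for 112 miRNAs upward and 61 downward, by the test of the difference itself. The 5 largest in each direction at 100 CPM are repeated here. On the log2 scale the difference was 8.01 for miR-34b-5p, 7.89 for miR-34c-5p, 7.16 for miR-449a-5p, 6.62 for miR-34b-3p and 5.76 for miR-34c-3p. It was -2.90 for miR-183-5p, -2.72 for miR-182, -2.29 for miR-130a-3p, -2.26 for miR-181d-5p and -2.15 for miR-10a-5p.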

How the results depend on the processing

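Between ages, the counts called higher and lower (103 and 101) were 87 and 141 with library size only, 106 and 95 with RLE, and 107 and 94 with DESeq2. They were 92 and 133 with all 16 testis samples, and 103 and 94 with lane in a fit of all libraries the study kept. Without any 1 library they were 91 to 113 and 88 to 106. With no fold minimum they were 144 and 155, and with glmTreat, which tests against the fold itself, 76 and 44. Numbers of testis libraries do not pair rats. The fit with the replicate block called 101 and 90, with 188 of the 204 calls of the report among them. With such a block, which for the other organs was age and replicate number, 110 and 60 differences from other organs were called. Arm ratios called were then 6 and 4, and seeds 78 and 80. For the other organs, 99 were lower without a fold minimum. Arm ratios toward the 3p arm numbered 1 with a mean count of at least 50 and 9 without a minimum of the difference, and without any 1 library 3 to 9 were called toward the 5p arm and 2 to 9 toward the 3p arm. Seeds called were 69 and 123 with library size only.

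Of the named miRNAs, no direction was reversed for a called one. Calls of miR-871-3p, miR-871-5p, miR-196b-5p, miR-191a-5p, miR-322-5p, miR-93-5p, miR-125b-2-3p and miR-202-5p were lost with glmTreat. With lane in the fit of all kept libraries, miR-127-3p was at -0.99 (adjusted p = 0.00708) and miR-871-5p at 0.98 (adjusted p = 0.103). miR-10a-5p, miR-182 and miR-100-5p, not called in the report, were called with DESeq2 (-1.69, -1.88 and 1.96), with filterByExpr, with all 16 testis samples and with lane in the fit, and miR-100-5p also with the replicate block (1.99). With library size only, miR-10b-5p (-1.04) and miR-351-5p (-1.04) were called lower. The lower miRNA counts at week 6 limit miRNAs near 3 counts (2.69 to 4.09 CPM).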

Other observations

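The later ages of testis, which are in no comparison of the report, are given as levels with SD over 4 rats. miR-34c-5p was at 131752 ± 9678 CPM at week 21 and 609.7 ± 818 CPM at week 104, where single rats ranged from 40.6 to 1784 CPM. miR-449a-5p was at 22768 ± 3503 and 89.4 ± 132 CPM, and miR-375-3p at 2754 to 3587 and 16.6 to 67.9 CPM. The X-linked miR-743b-3p was at 15628 ± 2709 CPM at week 21 and 417 ± 428 CPM at week 104. The means at week 104 were below those of week 2 for miR-449a-5p, miR-375-3p and miR-743b-3p, and miR-34c-5p was at 468 CPM at week 2.

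Some miRNAs that had fallen by week 6 had a higher mean at week 104 than at week 21. miR-335 was at 20.8 ± 8.86 CPM at week 21 and 188 ± 45.2 CPM at week 104, miR-135b-5p at 13.3 ± 4.73 and 128 ± 75.4 CPM, and miR-196c-5p at 0.731 ± 1 and 18 ± 34.7 CPM. miR-182, apart in 1 library of week 6, was at 209 ± 44.3 CPM at week 21 and 91.8 ± 46.6 CPM at week 104.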
